A study of Mus musculus with 12 samples.

Results

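The array carried 303 genes that its annotation names Zfp followed only by digits, the mouse symbol for zinc finger protein. Of these, 197 had a probe well above background on all 12 arrays and are described here. They were chosen by that detection and by brightness: where several probes of a gene qualified, the one with the highest mean signal stands for the gene. The level is the log2 processed signal intensity minus the 75th percentile of its array, so 0 is the level of the probe at the upper quartile and 1 unit is a doubling. The members' mean levels ran from -3.22 to 5.75 with a median of 0.80, against 0.66 over all 26029 probes detected on every array. That set holds every detected probe and the members only the brightest per gene, so the medians are not like for like. Levels of different probes are not comparable as amounts of RNA, since probes differ in how they bind. Of the 106 Zfp genes left out, 62 passed on some arrays and 44 on none, so a gene switched off in any condition was not a member. The 5 probes with the highest mean readings were those of Zfp592 (5.75), Zfp655 (5.53), Zfp740 (5.12), Zfp296 (4.93) and Zfp706 (4.65), and the 5 with the lowest those of Zfp113 (-3.22), Zfp503 (-3.10), Zfp867 (-3.01), Zfp182 (-2.93) and Zfp105 (-2.85). Just inside the limit lay Zfp113, whose lowest level was -3.76, Zfp867 at -3.43 and Zfp597 at -3.25. Just outside, on 11 of the 12 arrays, were Zfp28, whose lowest level was -3.65, Zfp94 at -3.44 and Zfp13 at -4.07.

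Spleens of BALB/c mice 6 weeks old gave the RNA, taken from resting B (RB) cells left after removal of CD43-bearing cells, and each of 6 conditions had 2 arrays after 4 h. RB cells were left unstimulated, or received Pam2CSK4 (a synthetic lipopeptide that engages TLR-2), an antibody to the costimulatory molecule CD86, both of these (TLR2.CD86), an antibody to CD40, or anti-CD40 with Pam2CSK4. The comparisons asked which transcripts change when innate and costimulatory signals reach RB cells without antigen. The mice are labelled female, while the study's methods allow both sexes. Legends of the study call its array data biological replicates, and whether these were separate mice or cultures is not given in the sources used here, so p-values measure the spread between these arrays.

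The arrays lay on 2 slides, and 46.6% to 60.6% of an array's spots were well above background. Slide 1 held both unstimulated arrays, both anti-CD40+Pam2CSK4 arrays and replicate 1 of each other condition, and slide 2 held replicate 2 of those 4 conditions. Of the 197 members, 126 (64.0%) read lower on slide 2 in all 4 conditions, against 53.6% of all probes detected on every array, and 8 (4.06%) read higher, against 18% of those probes. All 10 B cell markers were above background on every array, but markers of other cells were detected too. The study reports a high purity of its RB cells by flow cytometry. The summed signal of 10 myeloid markers, in units of an array's 75th percentile, was 347 to 375 in unstimulated cells, 299.6 to 332 with TLR2.CD86, 294 to 311 with anti-CD86, 289 to 329 with anti-CD40 and 358 to 407 with anti-CD40+Pam2CSK4. That of 5 NK cell markers was 15.3 to 15.6 in unstimulated cells, as low as 8.73 with TLR2.CD86, 8.63 to 10.3 with anti-CD40 and 11.3 to 11.6 with anti-CD40+Pam2CSK4. Summed over 4 plasma cell markers it was 19.7 to 19.8 in unstimulated cells, at most 26.0 with TLR2.CD86, 37.9 to 38.6 with anti-CD40 and at least 42.5 with anti-CD40+Pam2CSK4. S100a9 and S100a8 (mean levels 7.62 and 6.57) carried most of the myeloid sum, and Irf4 (4.01) was the brightest plasma cell marker. Over the arrays Irf4 ran from 2.89 to 5.19, Xbp1 from 2.41 to 3.22, Sdc1 from 0.27 to 1.77 and Prdm1 from -0.93 to -0.17. The plasma cell sum is therefore no count of plasma cells. The sum of 8 T cell markers was 28.6 to 29.2 in unstimulated cells and 20.9 to 27.5 with TLR2.CD86. These markers include Cd5, whose protein the study also measured on RB cells. The B cell sum was 353 to 382 in unstimulated cells and 455 to 510 with anti-CD40+Pam2CSK4. That of 4 red cell markers was 84.8 to 85.1 and 102.8 to 103.2 in the same conditions. The part of these other cells in the results was not tested, and in such mixed RNA fewer cells of a type and less RNA per cell cannot be told apart.

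Most Zfp genes encode proteins with rows of fingers of the cysteine and histidine type, each folded around a zinc ion and reading a few bases of DNA. Many carry a KRAB domain, which recruits the corepressor TRIM28 and, through it, heterochromatin factors, and such proteins silence transposable elements and some genes. The symbol is a historical label, and it also covers BTB zinc finger factors, RNA-binding proteins and ribosome factors with other kinds of zinc fold. RefSeq now gives 13 members another symbol, among them Zfp828 (Champ1), Zfp161 (Zbtb14), Zfp238 (Zbtb18), Zfp259 (Zpr1), Zfp313 (Rnf114) and Zfp498 (Zscan25).

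The repeated fingers are visible in the probes themselves. The finger pattern was searched on the probe's strand as the invariant codon letters TG, TG, AA and TT of its paired cysteines, the lysine and the phenylalanine at their usual spacing, and the linker by the codon letters of threonine, glycine, glutamate, lysine and proline. The finger letters were in 7 of the 197 member probes (3.55%), against 0.318% of all 61307 probes, and the linker in 3 (1.52%), against 0.0652%. Among all 474 Zfp probes on the array the shares were higher, 6.12% and 2.53%. The probes of Zfp82 and Zfp108, described below, and of Zfp442 and Zfp52 are shown to let the shared pattern be seen, with the letters matched by the finger or the linker in capitals (both in Zfp442).
Zfp82: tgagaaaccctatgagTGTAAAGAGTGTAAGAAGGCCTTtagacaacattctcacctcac
Zfp108: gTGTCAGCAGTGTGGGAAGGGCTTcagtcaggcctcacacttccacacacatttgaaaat
Zfp442: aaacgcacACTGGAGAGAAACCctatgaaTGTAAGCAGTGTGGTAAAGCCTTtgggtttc
Zfp52: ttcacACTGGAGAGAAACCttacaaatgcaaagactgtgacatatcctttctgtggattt
Probes of 8 members, Zfp52, Zfp51, Zfp442, Zfp568, Zfp758, Zfp760, Zfp72 and Zfp825, share a run of at least 20 bases with a probe of another gene name, and their signal may hold RNA of such a relative.

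The most Zfp genes were called between RB cells given anti-CD40+Pam2CSK4 and unstimulated RB cells, except with the replicate number as a block. Of the 197 members, 48 (24.4%) passed limma's test at an adjusted p under 0.05, with 22 higher and 26 lower, and 13 of them changed at least 2-fold. Over all probes tested in this comparison, 18.2% passed, and over those detected on every array 19.7%. The share of all probes that reached 2-fold is not given, here or below. The members' median log2 fold change was -0.02, and that of all probes detected on every array was 0.00. Adjusted p-values here and below are limma's, with Benjamini-Hochberg adjustment over 31596 probes. All arrays of this comparison were on slide 1. On the arrays of slide 1 alone 94 members were called, where 40.3% of all probes were, and with the slide as a term in the fit 103, where 47.4% of all probes were. Without either unstimulated array or either anti-CD40+Pam2CSK4 array the count was 17 to 20. With the replicate number as a block anti-CD40 alone had more calls, 18 higher and 48 lower (29.8% of all probes). Anti-CD40+Pam2CSK4 had 27 and 33 there (27%). Shares of all probes are not given for fits with an array left out, here or below. Whether members lose calls there more than other probes cannot be told. All comparisons with unstimulated cells share the same 2 control arrays. Scaling each array by its median in place of its 75th percentile shifted all probes by -0.11 here, by -0.57 with anti-CD40 and by -0.29 with TLR2.CD86, and directions below are relative to that shift. With that scaling 2 members were called in this comparison (1.47% of all probes), 0 with anti-CD40 (1.1%) and 0 with TLR2.CD86 (0.418%), and with no filter on dim probes 22, 6 and 0 (4.02%, 1.74% and 0.0425% of all probes). Each member called in a comparison of 2 conditions was also called there with the slide term.

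Zfp719 showed the largest fall. Its levels were -0.35 and -0.25 on the unstimulated arrays and -2.50 and -2.14 with anti-CD40+Pam2CSK4. On the other 8 arrays Zfp719 lay between -0.77 and 0.18, so both anti-CD40+Pam2CSK4 arrays stood below every other array. The difference from unstimulated cells was -2.02 ± 0.15 (SE) on the log2 scale, or 4.06-fold lower (adjusted p = 0.000183). Zfp719 read 0.39 ± 0.15 against unstimulated cells with anti-CD40 alone (adjusted p = 0.105) and -0.37 ± 0.15 with Pam2CSK4 alone (adjusted p = 0.296), and neither passed, though the former did with the slide term (adjusted p = 0.0368).

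Zfp445, whose product helps to maintain genomic imprints, showed the largest rise. Its levels were -0.84 and -0.70 without stimulation and 1.29 and 1.24 with anti-CD40+Pam2CSK4, and no array of any other condition exceeded 0.00. The difference was 2.03 ± 0.15, or 4.09-fold higher (adjusted p = 0.000209). A second detected probe of Zfp445 gave 1.83 (adjusted p = 0.00057). With TLR2.CD86 the gene read -0.06 and -0.20, and with anti-CD86 0.00 and -0.16. Both conditions lay above the unstimulated arrays, with a difference of 0.64 ± 0.15 for TLR2.CD86 (adjusted p = 0.039). For anti-CD86 the difference of 0.69 ± 0.15 did not pass (adjusted p = 0.0607), and with the slide term it did (adjusted p = 0.0022).

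Zfp296, a nuclear zinc finger protein known from pluripotent cells, was higher in both conditions with anti-CD40. It read 4.49 and 4.47 in unstimulated cells, 5.71 and 5.43 with anti-CD40, and 5.87 and 5.86 with anti-CD40+Pam2CSK4. The log2 differences were 1.09 ± 0.13 (adjusted p = 0.00327) and 1.39 ± 0.13 (adjusted p = 0.000642). Its second detected probe gave 1.16 and 1.61. The 6 arrays with neither unstimulated cells nor anti-CD40 lay between 4.17 and 4.81 and overlapped the unstimulated arrays.

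Zfp566, Zfp455, Zfp82, Zfp108, Zfp828 and Zfp770 also rose in both conditions with anti-CD40. Zfp566 read 0.27 and -0.01 in unstimulated cells, 1.33 and 1.03 with anti-CD40 and 1.62 and 1.51 with anti-CD40+Pam2CSK4, differences of 1.05 ± 0.17 and 1.44 ± 0.17. Zfp455 read -1.46 and -1.26, then -0.22 and -0.27, then -0.32 and -0.19 in the same conditions. Its differences from unstimulated cells were 1.11 ± 0.13 with anti-CD40 (2.16-fold) and 2.15-fold with anti-CD40+Pam2CSK4. Zfp82 read -0.83 and -0.99, then -0.15 and -0.27, then 0.00 and 0.05, with differences of 0.70 ± 0.14 and 0.94 ± 0.14. Zfp108 differed by 0.90 ± 0.17 and 1.08 ± 0.17. Zfp828 (Champ1), which acts in the attachment of chromosomes to the spindle, differed by 0.78 ± 0.18 and 1.22 ± 0.18. For Zfp770 the differences were 0.54 ± 0.14 and 1.01 ± 0.14, the first of which is below 0 with median scaling before the shift is taken off, and a second probe gave 0.81 and 1.43. None of these genes passed with Pam2CSK4, anti-CD86 or TLR2.CD86, but with the slide term Zfp566 passed with TLR2.CD86 (adjusted p = 0.0354) and Zfp828 with Pam2CSK4 (adjusted p = 0.0438).

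**Figure D1:**
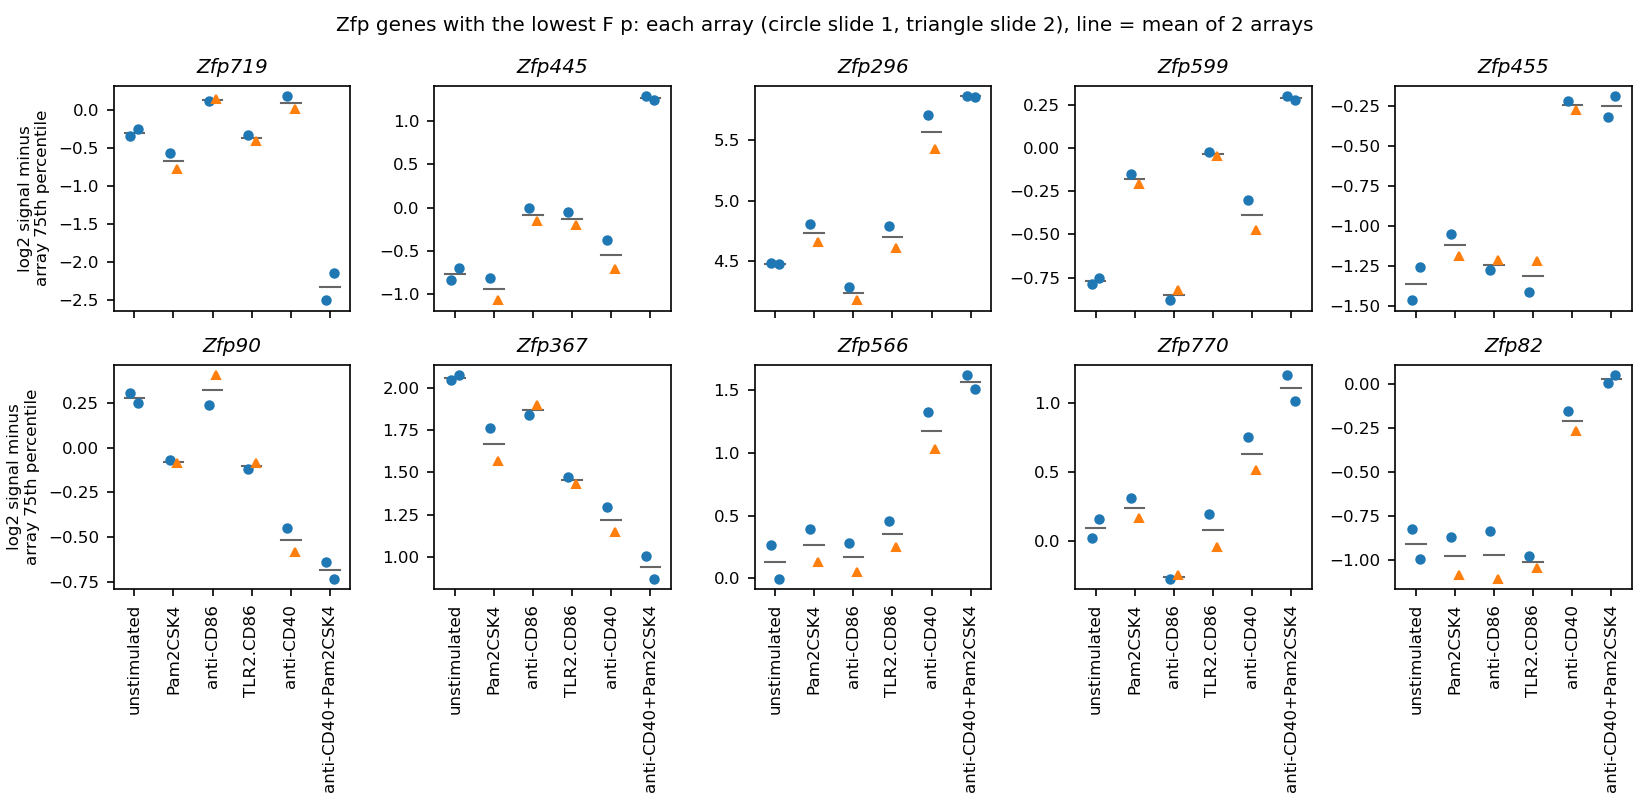
Level of the 10 members with the lowest p in the F test over all conditions, as log2 signal minus the array's 75th percentile (vertical axis), by condition (horizontal axis). Each point is an array, a circle on slide 1 and a triangle on slide 2, and the line is the mean of 2 arrays. Zfp719 is low and Zfp445 high with anti-CD40+Pam2CSK4, and Zfp296, Zfp455, Zfp566 and Zfp82 are high in both conditions with anti-CD40.

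Among the genes that fell, Zfp30, Zfp367, Zfp637 and Zfp90 were about 2-fold lower with anti-CD40+Pam2CSK4. Zfp30 read -0.17 on both unstimulated arrays and at most -1.26 with anti-CD40+Pam2CSK4, a difference of -1.21 ± 0.18 (adjusted p = 0.00351). Zfp367 read 2.05 and 2.08 in unstimulated cells and 1.01 and 0.87 with anti-CD40+Pam2CSK4, a difference of -1.12 ± 0.12 (adjusted p = 0.000848). Both genes were also called lower with TLR2.CD86 and with anti-CD40. For Zfp30 those differences were -0.69 ± 0.18 and -0.95 ± 0.18, and for Zfp367 -0.61 ± 0.12 and -0.84 ± 0.12. In Zfp367 no array of a stimulated condition reached the unstimulated levels, and the highest of them was 1.90, with anti-CD86.

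Zfp637 read 3.15 and 3.23 in unstimulated cells, 2.47 and 2.12 with anti-CD40 and 2.18 and 2.21 with anti-CD40+Pam2CSK4. The log2 difference was -0.90 ± 0.15 with anti-CD40, and the gene also passed with anti-CD40+Pam2CSK4 (adjusted p = 0.00375). Zfp90, a KRAB zinc finger gene, read 0.31 and 0.25, then -0.45 and -0.58, then -0.64 and -0.74, differences of -0.80 ± 0.11 and -0.97 ± 0.11. Zfp146, a short protein made almost wholly of fingers, was close to background and rose with anti-CD40+Pam2CSK4 by 1.37 ± 0.28 (adjusted p = 0.0125). It read -3.07 and -2.91 without stimulation and -1.47 and -1.76 with it, and with anti-CD40 alone -2.87 and -2.99, next to the unstimulated arrays.

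With anti-CD40 alone, 38 members (19.3%) were called against unstimulated cells, 12 higher and 26 lower, and 3 of them reached 2-fold. Of all probes tested 16.7% were called, and of those detected on every array 18.1%. The members' median was -0.13, against -0.06 over probes detected on every array. With the slide term 81 members were called (37.1% of all probes), and on slide 1 alone 51 (22.8% of all probes). Without either unstimulated array 3 were called, without either anti-CD40+Pam2CSK4 array 22 and without anti-CD40 replicate 2 15. For these fits, too, no share of all probes is given. Median scaling shifts every probe by the same -0.57, so 4 of the 38 with small positive estimates (Zfp62, Zfp770, Zfp213 and Zfp599) lie below 0 there. The genes that rose most were Zfp455, Zfp296, Zfp566, Zfp108 and Zfp828, given above. The genes that fell most were Zfp608 (-0.98 ± 0.18), Zfp30, Zfp658 (-0.93 ± 0.14), Zfp637 and Zfp64 (-0.87 ± 0.15).

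Zfp658 and Zfp608 read lower with anti-CD40 than with anti-CD40+Pam2CSK4. Zfp658 read -2.33 and -2.43 in unstimulated cells, -3.24 and -3.39 with anti-CD40 and -2.43 and -2.63 with anti-CD40+Pam2CSK4, where it was not called (-0.15 ± 0.14). With anti-CD40 it was close to background, since the dimmest detected signals of those arrays were -3.58 and -3.69. Zfp608, which represses the recombination genes Rag1 and Rag2 in thymocytes, read 2.16 and 2.25, then 1.34 and 1.12, then 1.83 and 1.88. It was not called with anti-CD40+Pam2CSK4 (-0.35 ± 0.18) except with the slide term (adjusted p = 0.00363), and a second detected probe of Zfp608 gave 0.38 with anti-CD40 (adjusted p = 0.097), with the opposite sign. The difference between both stimulations was not tested for these genes.

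With TLR2.CD86, the stimulation the study is about, fewer Zfp genes were called than in either condition with anti-CD40, as for all probes. With the slide term the count was 80 against 81 with anti-CD40 alone, and no difference between counts was tested. Without that term, 15 of the 197 members (7.61%) were called against unstimulated cells, 5 higher and 10 lower, where 10.6% of all probes were called. Of probes detected on every array 11.6% were called. None of the 15 reached 2-fold. The members' median was -0.18, against -0.07 over all probes detected on every array, and 141 of 197 estimates were below 0. The share of all probes below 0 is not given. The slide bears on this comparison, since 1 TLR2.CD86 array and no unstimulated array was on slide 2. With the slide as a term the median was -0.12 and 80 members were called, 34 higher and 46 lower (34.9% of all probes), and on slide 1 alone 31 were called (20% of all probes). Leaving out either unstimulated array, or TLR2.CD86 replicate 2, left 0 called by limma.

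The 5 members higher with TLR2.CD86 were Zfp498 (Zscan25), Zfp599, Zfp27, Zfp445 and Zfp397. Zfp599 read -0.79 and -0.75 in unstimulated cells and -0.02 and -0.05 with TLR2.CD86, a difference of 0.73 ± 0.10 (adjusted p = 0.0111). It read -0.15 and -0.21 with Pam2CSK4 and -0.88 and -0.82 with anti-CD86, so the TLR2.CD86 arrays lay near those with Pam2CSK4 and apart from those with anti-CD86. With anti-CD40+Pam2CSK4 it reached 0.30 and 0.28, a difference of 1.06 ± 0.10. A second detected probe of Zfp599 rose with anti-CD40+Pam2CSK4 (0.90, adjusted p = 0.03) and gave -0.01 with TLR2.CD86. Zfp498 differed by 0.80 ± 0.16 (adjusted p = 0.0232), Zfp27 by 0.70 ± 0.18 (adjusted p = 0.0472) and Zfp397 by 0.48 ± 0.12 (adjusted p = 0.0397). Second detected probes gave 0.53 for Zfp27 (adjusted p = 0.246) and 0.12 for Zfp397 (adjusted p = 0.637).

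The 10 members lower with TLR2.CD86 were Zfp414 (-0.84 ± 0.18), Zfp667 (-0.81 ± 0.18), Zfp672 (-0.75 ± 0.13), Zfp783 (-0.70 ± 0.13), Zfp30, Zfp64 (-0.65 ± 0.15), Zfp1 (-0.64 ± 0.14), Zfp467 (-0.63 ± 0.12), Zfp367 and Zfp330 (-0.44 ± 0.10). Zfp414 read 2.11 and 2.07 in unstimulated cells and 1.38 and 1.12 with TLR2.CD86. Its arrays with anti-CD86 alone, 1.52 and 1.22, and with Pam2CSK4 alone, 1.73 and 1.52, were also below the unstimulated arrays and passed only with the slide term (adjusted p = 0.00311 and 0.0346). Zfp667 read 1.29 and 1.41 in unstimulated cells, 0.74 and 0.34 with TLR2.CD86 and 1.34 and 1.32 with anti-CD40+Pam2CSK4. Zfp783 read -0.74 and -0.73 without stimulation and -1.43 on both TLR2.CD86 arrays.

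**Figure D2:**
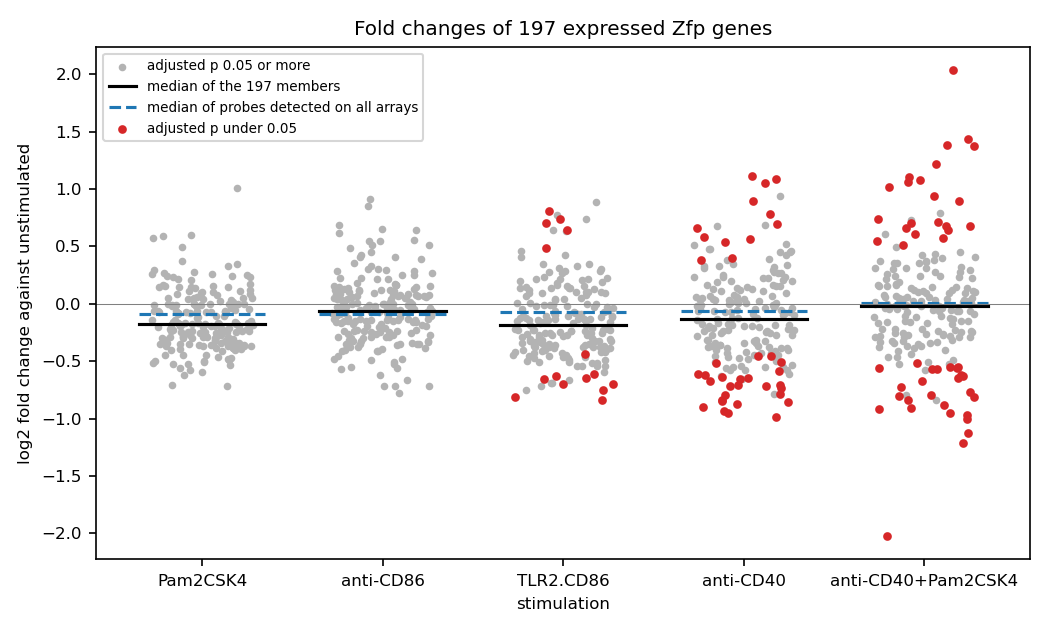
Log2 fold change against unstimulated cells (vertical axis) of each of the 197 Zfp genes for 5 stimulations (horizontal axis). Red points passed limma's test at an adjusted p under 0.05. The solid line is the members' median, -0.18 for TLR2.CD86, and the dashed line the median of all probes detected on every array, -0.07 there.

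Neither signal alone gave a Zfp gene called by its brightest probe, and another probe of Zfp553 was called higher with anti-CD86 (0.66, adjusted p = 0.0295). With Pam2CSK4, 0 of 197 members passed limma's test, and 0.136% of all probes tested were called. An unadjusted p under 0.05 was found for 32 members (16.2%), against 15.7% of all probes. With anti-CD86, 0 passed and 2.14% of all probes were called, and 31 members (15.7%) had an unadjusted p under 0.05, against 23.2% of all probes. With the slide term 29 members were called for Pam2CSK4, where 10.8% of all probes were, and 50 for anti-CD86, where 28.3% were. The lowest estimate with Pam2CSK4 was that of Zfp39, which read -2.27 and -2.23 in unstimulated cells and -3.07 and -2.88 with Pam2CSK4, a difference of -0.72 ± 0.14 (adjusted p = 0.103, and 0.0238 with the slide term). Zfp142 had the highest estimates, 1.01 ± 0.33 with Pam2CSK4 and 0.92 ± 0.33 with anti-CD86 (adjusted p = 0.237 and 0.153). Its arrays lay at -1.99 and -2.45 in unstimulated cells, -1.72 and -0.70 with Pam2CSK4 and -1.08 and -1.53 with anti-CD86. Neither condition overlapped the unstimulated arrays, but the arrays of Pam2CSK4 lay as far apart as the groups. Zfp595 read 0.85 ± 0.24 against unstimulated cells with anti-CD86 (adjusted p = 0.0928, and 0.0361 with the slide term). Zfp617 read -0.71 ± 0.33 and -0.77 ± 0.33, but its unstimulated arrays, -2.19 and -1.02, lay far apart and overlapped both conditions. Zfp551 was estimated at 0.60 ± 0.45 with Pam2CSK4 from arrays at -0.43 and -1.86.

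TLR2.CD86 was also compared with each of its signals. Against Pam2CSK4, 0 members passed limma's test and 0.0633% of all probes were called, and 14 members (7.11%) had an unadjusted p under 0.05, against 10.3% of all probes. The highest estimate there was that of Zfp445, 0.81 ± 0.15 (adjusted p = 0.142), and the lowest that of Zfp658, -0.57 ± 0.14 (adjusted p = 0.224). Next to these were Zfp146 (0.51 ± 0.28, adjusted p = 0.608) and Zfp867 (-0.52 ± 0.21, adjusted p = 0.441). Against anti-CD86, Zfp599 was the 1 member called, by 0.81 ± 0.10 (adjusted p = 0.027), where 0.225% of all probes were called. It was not called with median scaling, with no filter on dim probes or when most single arrays were left out. A second detected probe of Zfp599 gave 0.61 (adjusted p = 0.49). Under the slide term the counts were 16 against Pam2CSK4 (8 higher and 8 lower, with 10.7% of all probes), Zfp445 (adjusted p = 0.00714) and Zfp658 (adjusted p = 0.0384) among them, and 15 against anti-CD86 (2 higher and 13 lower, with 7.55% of all probes).

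Between both double stimulations, anti-CD40+Pam2CSK4 and TLR2.CD86, 31 members (15.7%) were called, 23 higher and 8 lower with anti-CD40+Pam2CSK4, and 12.2% of all probes. Of these, 9 reached 2-fold. Zfp445 (1.39 ± 0.15), Zfp828 (1.28 ± 0.18), Zfp566 (1.21 ± 0.17), Zfp296 (1.17 ± 0.13), Zfp455 (1.06 ± 0.13), Zfp82 (1.04 ± 0.14) and Zfp770 (1.03 ± 0.14) were higher, and Zfp719 (-1.95 ± 0.15) and Zfp292 (-1.14 ± 0.15) were lower. Zfp330 was higher by 0.66 ± 0.10, while its second detected probe gave 0.21 (adjusted p = 0.399). The members' median was 0.15, against 0.08 over all probes detected on every array. With the slide term 84 members were called, 47 higher and 37 lower (34.5% of all probes), and the median was 0.06. With no filter on dim probes 7 were higher and 2 lower (1.99% of all probes), and median scaling called 0.893% of all probes. Leaving out any array of either condition lowered the count, as given at the end. On slide 1 alone 25 were higher and 24 lower (20.6% of all probes), and with median scaling 1 was called.

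Over all 6 conditions, 40 members (20.3%) passed the F test, against 20.1% of all probes tested. Of probes detected on every array 21.4% passed. With the slide term 129 members did (59.9% of all probes). Median scaling, no filter on dim probes and leaving out some single arrays gave lower counts, listed at the end. The condition with the highest mean was anti-CD40+Pam2CSK4 for 17 of these 40 and unstimulated for 12. The lowest mean was with anti-CD40+Pam2CSK4 for 15. The same counts over all probes that passed are not given, so these are not shown to be particular to Zfp genes. Zfp39 was lowest with Pam2CSK4, and Zfp758, whose probe shares bases with relatives, was highest with anti-CD86 (-1.21 and -0.87, against -1.69 and -1.70 in unstimulated cells). Across the 5 comparisons with unstimulated cells, which share the same 2 control arrays, 136 members (69.0%) were called in none, against 71.3% of all probes tested.

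**Figure D3:**
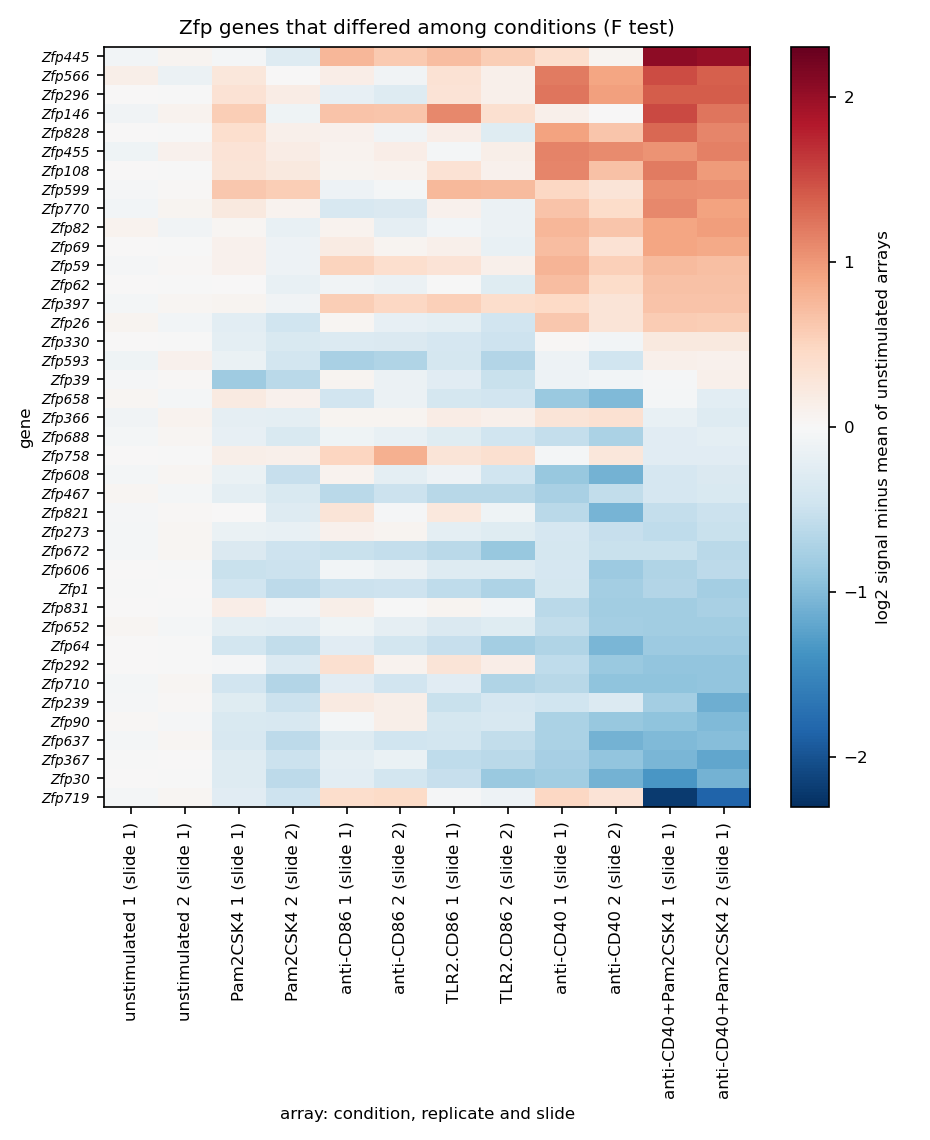
Level of the 40 members that passed the F test on each of the 12 arrays (columns), as log2 signal minus the mean of both unstimulated arrays (colour), ordered by the difference with anti-CD40+Pam2CSK4. Zfp445 is at the top and Zfp719 at the bottom. The unstimulated columns are pale by construction.

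Of 10 members known to act on RNA or ribosomes, 1 was called higher with anti-CD40+Pam2CSK4 (18.2% of all probes were called), 1 lower with TLR2.CD86 (10.6%) and 0 with anti-CD40 (16.7%), and their medians were 0.31, -0.21 and -0.01. With the slide term 6 were called higher and 0 lower with anti-CD40+Pam2CSK4, where 47.4% of all probes were called. That term gave 3 higher and 3 lower with TLR2.CD86 (34.9%), and 3 and 2 with anti-CD40 (37.1%). Without that term the gene that rose was Zfp598, a sensor of collided ribosomes. It read 3.13 and 3.08 in unstimulated cells and 3.76 and 3.73 with anti-CD40+Pam2CSK4 (0.64 ± 0.18). Zfp330, a nucleolar protein, was the gene lower with TLR2.CD86, reading 4.39 and 4.36, then 3.98 and 3.89. A second detected probe of Zfp330 gave -0.14 there and was not called (adjusted p = 0.587). Zfp622, a factor of large ribosomal subunit maturation, read 4.42 and 4.32 in unstimulated cells and did not pass with anti-CD40+Pam2CSK4 (0.61 ± 0.26, adjusted p = 0.15), and with the slide term it did (adjusted p = 0.00044). Zfp593, another ribosome maturation factor, gave 0.11 ± 0.17 with its brightest probe, while its second detected probe gave 1.08 with anti-CD40+Pam2CSK4 (adjusted p = 0.0025) and 0.91 with anti-CD40 (adjusted p = 0.008). The double-stranded RNA-binding Zfp346 gave 0.73 ± 0.23 with anti-CD40+Pam2CSK4, the RNA-binding Zfp106 0.43 ± 0.15, the elongation and splicing factor Zfp326 -0.16 ± 0.19, the spindle protein Zfp207 -0.13 ± 0.16 and Zfp277 0.14 ± 0.23, and none passed. Of 3 other detected probes of Zfp106, 2 were called higher in this comparison (0.74 and 1.05, adjusted p = 0.0223 and 0.0175), and a second probe of Zfp207 was called lower with anti-CD40 (-0.49, adjusted p = 0.0341). With the slide term the brightest probes of Zfp346 (adjusted p = 0.0194) and Zfp106 (adjusted p = 0.00287) were called higher with anti-CD40+Pam2CSK4.

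Zfp36 encodes tristetraprolin, which binds AU-rich elements and brings the deadenylation machinery to cytokine mRNAs. It read 4.51 and 4.49 in unstimulated cells, 4.54 and 4.14 with TLR2.CD86, 4.71 and 4.29 with anti-CD40 and 4.89 and 4.91 with anti-CD40+Pam2CSK4. Both anti-CD40+Pam2CSK4 arrays were the highest of the 12, but the difference of 0.40 ± 0.19 did not pass (adjusted p = 0.19). With the slide term it did (adjusted p = 0.0021), and the second Zfp36 probe gave -0.06. Of 28 listed genes of mRNA deadenylation and decay, 27 were measured. With anti-CD40+Pam2CSK4, 1 rose and 2 fell: Zfp36l1, a relative of Zfp36 that is no member because of its symbol (0.92 ± 0.11), and Btg2 (-0.98 ± 0.13), an antiproliferative deadenylation cofactor, and Cnot3 (-0.72 ± 0.13), a subunit of the deadenylase complex. With anti-CD40, 1 rose and 4 fell, again Zfp36l1 (0.60 ± 0.11) and Btg2 (-1.04 ± 0.13) among them, and with TLR2.CD86 0 passed limma's test. Of all probes 18.2%, 16.7% and 10.6% were called in these comparisons. The slide term gave 6 higher and 10 lower with anti-CD40+Pam2CSK4 (47.4% of all probes) and 5 and 5 with anti-CD40 (37.1%). With TLR2.CD86 it gave 3 higher and 6 lower (34.9%).

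Of 15 members with known roles in lymphocytes or immune signalling, 1 was called higher and 2 lower with anti-CD40+Pam2CSK4, 3 lower with anti-CD40 and 1 lower with TLR2.CD86, against 18.2%, 16.7% and 10.6% of all probes called. The slide term gave 3 higher and 5 lower, 1 and 5, and 5 and 4, against 47.4%, 37.1% and 34.9% of all probes. Zfp64, an activator of the leukaemia gene MLL, read 3.97 and 3.94 in unstimulated cells, 3.43 and 3.17 with TLR2.CD86, 3.27 and 2.90 with anti-CD40 and 3.11 on both anti-CD40+Pam2CSK4 arrays. It was called lower in each of these. Zfp292, mutated in some chronic lymphocytic leukaemias, read 2.43 and 2.40 in unstimulated cells, 2.72 and 2.57 with TLR2.CD86 and at most 1.51 with anti-CD40+Pam2CSK4, where it fell by 0.91 on the log2 scale. Zfp384, a partner in gene fusions of acute lymphoblastic leukaemia, rose with anti-CD40+Pam2CSK4 (0.68 ± 0.18), and its second detected probe gave 0.44 (adjusted p = 0.31).

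Zfp318, which B cells need to express IgD through long transcripts of the heavy chain locus, read 2.78 and 2.89 in unstimulated cells, 3.11 and 2.76 with TLR2.CD86, 3.04 and 2.63 with anti-CD40 and 2.93 and 2.82 with anti-CD40+Pam2CSK4. The groups overlapped, and the differences were 0.10 ± 0.20, 0.00 ± 0.20 and 0.05 ± 0.20. The first was 0.28 with the slide term and passed (adjusted p = 0.028). Other detected probes of Zfp318 gave 0.08, -0.13 and 0.16 there, and none passed (lowest adjusted p = 0.385). Zfp91, an E3 ligase acting on the kinase NIK of the noncanonical NF-kB pathway, gave -0.22 ± 0.11, -0.34 ± 0.11 and -0.29 ± 0.11 in the same comparisons and did not pass, but with the slide term it passed with anti-CD40 (adjusted p = 0.0106) and anti-CD40+Pam2CSK4 (adjusted p = 0.00686). Zfp313 (Rnf114), a ubiquitin ligase, read 0.59 and 0.72 in unstimulated cells and 1.49 and 1.09 with TLR2.CD86. Its difference of 0.63 ± 0.18 did not pass (adjusted p = 0.058), and with the slide term it was 0.78 (adjusted p = 0.0012). Zfp335, Zfp148, Zfp281, Zfp35, Zfp609, Zfp110 and Zfp369 also were not called in these comparisons, and with anti-CD40+Pam2CSK4 they ran from -0.34 ± 0.14 for Zfp148 to 0.36 ± 0.19 for Zfp110. For Zfp35 the brightest probe gave 0.05 there and 3 other detected probes 0.36 to 0.52, and 1 of these was called higher with anti-CD40 (0.76, adjusted p = 0.0453). With the slide term Zfp148 (adjusted p = 0.00663) and Zfp110 (adjusted p = 0.00651) passed with anti-CD40+Pam2CSK4, and Zfp335, Zfp35, Zfp110 and Zfp369 with TLR2.CD86 (adjusted p = 0.0395, 0.0119, 0.0265 and 0.0206), of which Zfp335 also with anti-CD40 (adjusted p = 0.0106).

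Of 20 BTB or other chromatin and transcription members, 1 was called higher and 5 lower with anti-CD40+Pam2CSK4, 5 lower with anti-CD40 and 1 lower with TLR2.CD86, against 18.2%, 16.7% and 10.6% of all probes called. The slide term gave 4 higher and 9 lower, 3 and 8, and 2 and 8, against 47.4%, 37.1% and 34.9% of all probes. Those lower with anti-CD40+Pam2CSK4 were Zfp367, Zfp90, Zfp652 (-0.80 ± 0.11), a repressor that works with CBFA2T3, Zfp161 (-0.67 ± 0.19), a BTB factor, and Zfp740 (-0.51 ± 0.13). Zfp740 read 5.38 and 5.43 in unstimulated cells and 4.95 and 4.84 with anti-CD40+Pam2CSK4. Zfp259 (Zpr1), required for cell growth, was the gene that rose (0.73 ± 0.19), and its second detected probe gave 0.38 (adjusted p = 0.0944). Zfp410, an activator of Chd4, gave -0.06 ± 0.20, and Zfp143, a promoter-binding activator, 0.06 ± 0.10. Zfp809 and Zfp568, KRAB proteins that silence proviruses and a placental Igf2 promoter, gave -0.06 ± 0.17 and 0.36 ± 0.15 and were not called, though Zfp568 was with the slide term (adjusted p = 0.00932).

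The partners of KRAB proteins were examined as a list of corepressor and heterochromatin genes, of which 31 of 32 were measured. With TLR2.CD86, where 10.6% of all probes were called, 0 rose and 5 fell: Uhrf1 (-1.02 ± 0.12), which couples DNA methylation to replication, the deacetylases Hdac2 (-0.80 ± 0.18) and Hdac1 (-0.58 ± 0.13), and the histone-binding Rbbp4 (-0.78 ± 0.20) and Rbbp7 (-0.47 ± 0.11). The list's median was -0.20, against -0.07 for all probes detected on every array. The slide term gave 6 higher and 8 lower there (34.9% of all probes). Anti-CD86 alone gave 2 lower and 0 higher, where 2.14% of all probes were called, and 6 higher and 5 lower with the slide term (28.3%). With anti-CD40+Pam2CSK4, 5 rose and 3 fell, with Sumo2 at 1.03 ± 0.17, Smarcad1 at 0.72 ± 0.11, Suv39h2 at 0.71 ± 0.15 and Hdac1 at -0.72 ± 0.13. With anti-CD40, 2 rose and 3 fell, with Sumo2 at 0.76 ± 0.17 and Chd4 at 0.44 ± 0.12. Here 18.2% and 16.7% of all probes were called, and the slide term gave 11 higher and 10 lower, and 9 and 7, against 47.4% and 37.1% of all probes.

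Zfp genes lie in clusters, and 195 members could be placed in the gene order of assembly GRCm38.p6. Counting members at most 3 genes apart as neighbours, 39 members lay in 9 runs of 3 or more. The longest run held 11 members on chromosome 7, and its genes did not move as a block. With anti-CD40+Pam2CSK4, Zfp27 (0.70 ± 0.18), Zfp82, Zfp566 and Zfp146 rose, Zfp30 fell and 6 did not pass, of which Zfp383 (adjusted p = 0.00838) and Zfp568 did with the slide term. Of all probes 18.2% were called in this comparison, and 47.4% with the slide term. The neighbours of Zfp566 on either side were Zfp82, which rose in the same comparisons, and Zfp382, which gave 0.13 ± 0.16. Zfp719 lay in another run on chromosome 7 between Zfp658 (-0.15 ± 0.14) and Zfp819 (0.19 ± 0.21), and neither was called with anti-CD40+Pam2CSK4.

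**Figure D4:**
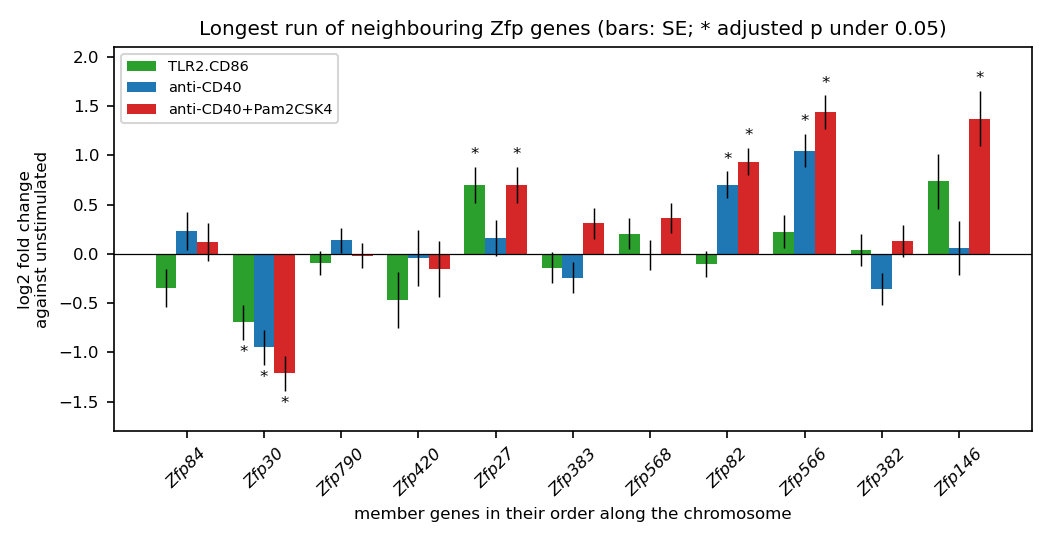
Log2 fold change against unstimulated cells (vertical axis, bars with SE) for the 11 neighbouring members of the longest run, in gene order (horizontal axis), with TLR2.CD86, anti-CD40 and anti-CD40+Pam2CSK4. A star marks an adjusted p under 0.05. Zfp30 is below 0 and Zfp82 and Zfp566 above 0 in both conditions with anti-CD40.

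RefSeq (GRCm38.p6) promoter windows, 250 bases before to 50 after the start of transcription, were held for 163 members and 27025 genes. Motifs were searched on both strands. The ZNF143 motif, bound by the product of the member Zfp143, was in windows of 25 members (15.3%), against 2.27% of all genes. The ETS motif CCGGAAG was in 23.3% against 9.93% and the palindromic NRF1 motif in 15.3% against 5.19%. The YY1 motif AAGATGG was in 11% (18 members) against 7.28%. The E2F motif TTTCCCGC was in 4.91% against 1.24%, and the CRE motif TGACGTCA in 4.29% against 2.03%. The NF-kB motif was in 3.68% against 5.14%. The members were chosen for detection, while all genes include those not detected here, so these shares are not like for like. A share over detected genes is not given. Of 19 members with a window that rose with anti-CD40+Pam2CSK4, 5 held the ZNF143 motif and 1 the NF-kB motif, and of 23 that fell, 4 and 0 did. A match is a description of the letters and not a bound site.

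Of the 10 members with the lowest F test p, windows of 5 are shown, chosen because they hold different motifs and their levels moved in different directions. The windows of Zfp445 and Zfp296 held none of these motifs, that of Zfp770 held the NRF1 motif, and a second window of Zfp367 held the CRE motif. Each is written 5′ to 3′ on the strand of the gene, with motif matches in capitals. Zfp566 (chr7:30090461-30090760, minus strand) holds the YY1 motif in reverse and the ZNF143 motif, Zfp455 (chr13:67194256-67194555, plus strand) the ZNF143 motif in reverse, Zfp719 (chr7:43579336-43579635, plus strand) and Zfp82 (chr7:30072774-30073073, minus strand) the NRF1 motif, and Zfp367 (chr13:64153150-64153449, minus strand) the E2F motif in reverse.
Zfp566: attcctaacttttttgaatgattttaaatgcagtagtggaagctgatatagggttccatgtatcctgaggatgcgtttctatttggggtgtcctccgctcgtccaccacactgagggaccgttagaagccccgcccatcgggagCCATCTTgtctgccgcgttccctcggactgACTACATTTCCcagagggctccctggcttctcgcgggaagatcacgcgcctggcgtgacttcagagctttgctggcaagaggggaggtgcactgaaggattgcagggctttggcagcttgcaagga
Zfp455: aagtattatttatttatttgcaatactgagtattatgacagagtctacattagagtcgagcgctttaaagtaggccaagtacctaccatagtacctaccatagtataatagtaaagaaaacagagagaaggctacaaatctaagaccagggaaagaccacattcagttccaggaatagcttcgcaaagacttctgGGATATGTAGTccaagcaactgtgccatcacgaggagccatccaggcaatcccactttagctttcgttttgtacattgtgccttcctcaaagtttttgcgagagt
Zfp719: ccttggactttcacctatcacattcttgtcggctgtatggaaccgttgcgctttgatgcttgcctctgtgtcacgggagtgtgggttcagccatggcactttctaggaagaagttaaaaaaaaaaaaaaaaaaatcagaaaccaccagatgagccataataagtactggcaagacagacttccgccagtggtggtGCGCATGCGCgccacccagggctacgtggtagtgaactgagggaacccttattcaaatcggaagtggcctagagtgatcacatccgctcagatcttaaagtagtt
Zfp82: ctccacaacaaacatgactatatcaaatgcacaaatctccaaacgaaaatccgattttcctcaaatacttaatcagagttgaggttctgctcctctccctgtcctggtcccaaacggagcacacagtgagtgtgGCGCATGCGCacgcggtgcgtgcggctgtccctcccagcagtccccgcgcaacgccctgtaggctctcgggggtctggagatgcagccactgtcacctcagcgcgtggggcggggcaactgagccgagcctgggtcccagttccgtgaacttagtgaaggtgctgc
Zfp367: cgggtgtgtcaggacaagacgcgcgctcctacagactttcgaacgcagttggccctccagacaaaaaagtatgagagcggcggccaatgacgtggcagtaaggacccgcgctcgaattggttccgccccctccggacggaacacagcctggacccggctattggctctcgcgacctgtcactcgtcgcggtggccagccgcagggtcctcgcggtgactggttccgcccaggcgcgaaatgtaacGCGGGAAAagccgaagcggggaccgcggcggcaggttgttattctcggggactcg
Zfp566, Zfp455 and Zfp82 rose with anti-CD40 and with anti-CD40+Pam2CSK4, Zfp367 fell with both, and Zfp719 fell with anti-CD40+Pam2CSK4, so the NRF1 motif was in a window of a gene that rose and of a gene that fell.

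Probes of the same gene were compared where a called member had another detected probe. With anti-CD40+Pam2CSK4, 19 of 19 other probes, from 17 called members, had the direction of the brightest probe, and 10 of them were called. With anti-CD40, 10 of 13 had the same direction and 6 were called, and with TLR2.CD86 7 of 8 and 1. None was called in the opposite direction. Members not called by their brightest probe could have another probe that was, as Zfp263 did with anti-CD40+Pam2CSK4, where 2 other probes gave -1.78 and -1.51 (adjusted p = 0.00113 and 0.00077).

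**Figure D5:**
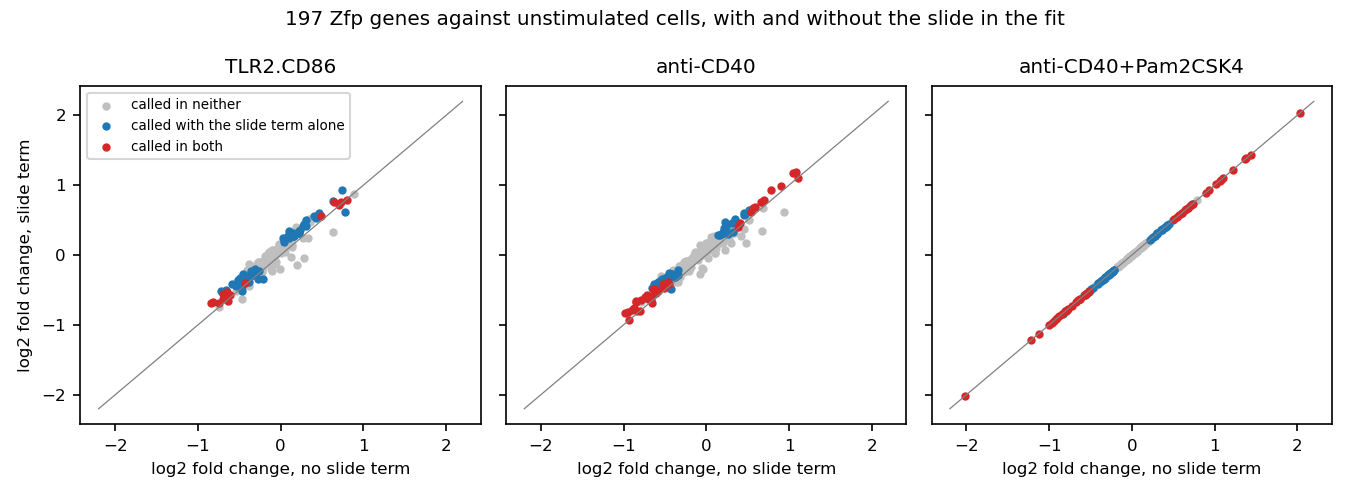
Log2 fold change of the 197 members against unstimulated cells without (horizontal axis) and with (vertical axis) the slide as a term in the fit, for TLR2.CD86, anti-CD40 and anti-CD40+Pam2CSK4. Red members were called in both fits and blue ones with the slide term alone, and the diagonal marks equal values. With anti-CD40+Pam2CSK4 the estimates are equal, since all its arrays are on slide 1, and 103 members were called with the slide term against 48 without it.

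The median difference between both arrays of a condition was 0.06 for unstimulated and 0.08 for anti-CD40+Pam2CSK4, whose arrays shared a slide, and 0.15 to 0.28 for the other 4 conditions. All 15, 38 and 48 members called for TLR2.CD86, anti-CD40 and anti-CD40+Pam2CSK4 were also called, in the same direction, with the slide term.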

How the data were processed

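RNA labelled with Cy3 was hybridised by the authors to custom mouse arrays, and images were read with Agilent Feature Extraction 10.5.1.1. The deposited scanner files give an intensity per spot, and the processed signal intensity, corrected for background by that software, was used. A second file deposited by the authors holds log2 values for these arrays and served as an alternative. The genome build behind the probes was not used, and the RefSeq tables (GRCm38.p6) gave names, gene order and promoters. Of the members, 188 were matched by accession, 8 by symbol and 1 by synonym.

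Control and outlier spots were left out, spots of a probe were averaged and log2 signal was centred on each array's 75th percentile. Of 61307 probes, 31596 were tested, each detected on both replicates of some condition. All 12 arrays entered a linear model (limma 3.58.1, R 4.3.3) with a term for each condition and an adjusted p threshold of 0.05, and for all conditions an F test was made, since the methods name a one way ANOVA. The procedure was also run on simulated data, and no result of that is given here. No depth is defined for arrays, and 2 per condition limit the precision. Python 3.11.15, pandas 2.3.3, numpy 2.4.6 and matplotlib 3.10.9 made the tables and figures.

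Genes named are the 10 with the lowest F test p, the 5 highest and 5 lowest called against unstimulated cells whose arrays did not overlap (where none was called, the 2 highest and 2 lowest), up to 10 called in other comparisons by p, the 5 brightest and 5 dimmest, the threshold genes, the members of 3 role lists and up to 4 called genes of each pathway list. Zfp758, Zfp819, Zfp382, Zfp263, Zfp553 and other genes outside that rule were named after their values were seen. The members and lists were chosen with earlier results of these data known. Alternatives were other background corrections, scalings and filters, the slide or replicate number as a block, slide 1 alone and each array left out.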

Additional observations from a re-analysis of the deposited data

How the results depend on the processing

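Counts of called members are given in the order TLR2.CD86, anti-CD40+Pam2CSK4, Pam2CSK4, anti-CD86 and anti-CD40 against unstimulated cells, TLR2.CD86 against Pam2CSK4 and against anti-CD86, anti-CD40+Pam2CSK4 against TLR2.CD86, and the F test. They were 15, 48, 0, 0, 38, 0, 1, 31 and 40 as reported. A slide block gave 80, 103, 29, 50, 81, 16, 15, 84 and 129, and on slide 1 alone, where a condition with 1 array is taken to vary like the others, 31, 94, 0, 0, 51, 0, 0, 49 and 69. With median normalization they were 0, 2, 0, 0, 0, 0, 0, 1 and 2. With no filter on dim probes they were 0, 22, 0, 0, 6, 0, 0, 9 and 13, and with only probes detected on every array 28, 53, 0, 7, 45, 0, 1, 35 and 53. Of all probes detected on every array, without the F test, 16.6%, 22.6%, 0.397%, 5.28%, 22.5%, 0.116%, 0.243% and 15.9% were called in that last setting. With normexp the counts were 26, 52, 0, 6, 48, 0, 1, 32 and 47, with quantile normalization 22, 57, 0, 9, 48, 0, 2, 41 and 59, and with the log2 values of the authors 15, 47, 0, 0, 37, 0, 1, 29 and 40. Shares of all probes with normexp, without the F test, were 13.9%, 20%, 0.291%, 4.45%, 19.1%, 0.0728%, 0.256% and 12.8%. With quantile normalization these shares were 12.6%, 20.2%, 0.25%, 5.15%, 20.3%, 0.111%, 0.326% and 14.1%. The plain one way ANOVA, adjusted over the same probes, called 39. The cause of these differences was not tested.

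The share of called members that were higher was 33.3% for TLR2.CD86 as reported, 15.6% with the replicate block, 19.2% with normexp, 21.4% with only probes detected on every array and 22.7% with quantile normalization, and 38.7% on slide 1 alone and 42.5% with the slide block. For anti-CD40 it was 31.6%, 51.0% on slide 1 alone and 3 of 6 with no filter on dim probes. For anti-CD40+Pam2CSK4 against TLR2.CD86 it was 74.2%, 61.0% with quantile normalization, 56.0% with the slide block and 51.0% on slide 1 alone.

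With the replicate block the counts were 45, 60, 1, 18, 66, 0, 1, 48 and 82. Shares of all probes, in that order without the F test, were 24.5%, 27%, 0.756%, 12.6%, 29.8%, 0.165%, 0.386% and 21.2%. Deviations of same-numbered arrays correlated at 0.54 to 0.67 among the 4 conditions split over both slides. Otherwise they correlated at -0.11 to 0.07, over probes that are not independent. In those 4 conditions the replicate number and the slide are the same split, so pairing and slide cannot be told apart.

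Leaving out each array in turn gave 0 to 25, 17 to 53, 0, 0 to 5, 3 to 40, 0, 0 to 1, 9 to 33 and 14 to 42. For TLR2.CD86 against unstimulated cells there were 0 calls without either unstimulated array or TLR2.CD86 replicate 2, 6 without TLR2.CD86 replicate 1 or either anti-CD40+Pam2CSK4 array, 8 without either anti-CD86 array and 25 without either anti-CD40 array. Of the 15 genes called with all arrays, 5 were still called without TLR2.CD86 replicate 1, 7 without either anti-CD86 array and 15 without either anti-CD40 array. Anti-CD86 reached 5 without either anti-CD40 array. The F test gave 19 or 20 without an unstimulated array, 14 or 15 without an anti-CD40+Pam2CSK4 array and 26 without anti-CD86 replicate 2. The comparison of both double stimulations gave 9 without either anti-CD40+Pam2CSK4 array, 12 without TLR2.CD86 replicate 2, 20 without TLR2.CD86 replicate 1 and 17 without either unstimulated array. The call of Zfp599 against anti-CD86 was lost without any single array of Pam2CSK4, anti-CD86, TLR2.CD86, anti-CD40+Pam2CSK4 or unstimulated cells. Shares of all probes are not given for these fits, so a loss of calls is not shown to be particular to the members. No array left out changed the sign of a called member in the 4 comparisons with several calls. Of the 53 pairs of a named gene and a comparison that were recomputed, genes named only for their role not among them, 1 estimate changed sign: Zfp551 with Pam2CSK4 was -0.11 (adjusted p = 0.855) without Pam2CSK4 replicate 1 and 1.31 without replicate 2.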
